A study of Mus musculus with 12 samples.

Results

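Histone genes were followed by RNA-seq in the mouse colon tumour line MC38. The cells held either a guide RNA against Hcar1, the gene of a lactate receptor (sgHcar1), or a control guide (sgControl). The genes were chosen by symbol and level: an entry belonged if its name began with Hist1h to Hist4h, H2af, H3f3 or H1f and if it reached 1 FPKM in at least 3 of the 12 libraries. FPKM are fragment numbers scaled to the length of the gene and the size of the library. Of 42329 entries in the table, 54 matched the name pattern and 22 of these passed the level rule. They were 13 of 40 matching genes of the histone clusters, called clustered below, and 9 of 14 matching genes that stand outside the clusters, called variants. The 4 groups had 3 libraries each: sgHcar1 cells in 20 mM lactate for 24 hours, sgHcar1 cells in PBS, sgControl cells in 20 mM lactate for 24 hours, and sgControl cells in PBS. All came from the same tumour line, and the labels do not say whether a guide population is a single clone or how long it was grown apart. Separate cultures for the 3 libraries of a group are not stated either, so all p-values rest on the spread among libraries, which may be technical.

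Histones package DNA into nucleosomes, with H2A, H2B, H3 and H4 in the core and H1 on the linker. Clustered genes supply most of the histone protein that a cell needs when it copies its DNA. Their mRNAs are made mainly in S phase, have no introns, and end in a conserved stem-loop in place of a poly(A) tail. Variant genes are transcribed outside S phase as well, carry poly(A) tails, and encode forms with special duties, such as H2A.X at DNA breaks and H3.3 at active genes. Libraries built from poly(A) RNA therefore capture clustered mRNAs poorly. The labels name a TruSeq RNA kit with total RNA as input, and whether poly(A) RNA was selected is not given in the sources used here.

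The stem-loops are shown because they separate these classes and because a variant shares the element. In the first 100 bases after the stop codon, a pattern of 16 bases was searched on the sense strand. It reads GG, 3 free bases, TT, a free base, T, a free base, A, 3 free bases and CC. The pattern occurred in 10 of the 11 clustered genes past the filter that have a 3′ UTR in the GENCODE annotation of GRCm38, and in 1 of the 9 variants, H2afx. Over all protein-coding genes with a 3′ UTR it occurred in 91 of 20927, or 0.435%. Capitals mark the matched stem and loop in the following sites, given 5′ to 3′ as DNA of the sense strand.
Hist1h1c, chr13:23739507-23739532, plus strand: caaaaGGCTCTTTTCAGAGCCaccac
Hist1h4i, chr13:22040961-22040986, minus strand: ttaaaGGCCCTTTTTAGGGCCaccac
Hist1h2bm, chr13:21722501-21722526, plus strand: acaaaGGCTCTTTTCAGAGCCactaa
Hist2h2ac, chr3:96220413-96220438, minus strand: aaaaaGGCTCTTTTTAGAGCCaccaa
Hist3h2a, chr11:58955167-58955192, plus strand: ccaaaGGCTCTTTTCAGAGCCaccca
H2afx, chr9:44335235-44335260, plus strand: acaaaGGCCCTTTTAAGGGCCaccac
Hist2h2be had no match in that window, and Hist1h2ba and Hist1h4k had no 3′ UTR to search. A match describes letters in the annotated transcript and not how the mRNA ended in these cells.

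Promoters are shown as examples for a linker histone gene, a core H2B gene and the variant with the highest mean over the 12 libraries. The windows are the 150 bases before the RefSeq start on GRCm38.p6, given 5′ to 3′ on the gene's strand. Capitals mark matches on either strand to 3 motifs. The first is the TATA box, searched as TATAAA. The next is the CCAAT box, searched under those letters. The last is the octamer, searched as ATTTGCAT.
Hist1h1c, chr13:23738657-23738806, plus strand: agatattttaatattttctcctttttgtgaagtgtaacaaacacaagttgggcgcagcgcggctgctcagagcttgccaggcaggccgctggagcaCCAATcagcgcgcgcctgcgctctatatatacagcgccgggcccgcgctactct
Hist1h2bm, chr13:21721894-21722043, plus strand: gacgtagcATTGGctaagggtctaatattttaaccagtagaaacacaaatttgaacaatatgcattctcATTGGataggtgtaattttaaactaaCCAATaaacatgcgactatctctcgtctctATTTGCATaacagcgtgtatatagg
H2afz, chr3:137864337-137864486, plus strand: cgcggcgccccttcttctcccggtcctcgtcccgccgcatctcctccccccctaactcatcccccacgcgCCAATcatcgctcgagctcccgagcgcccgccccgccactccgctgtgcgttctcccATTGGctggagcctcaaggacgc
Over the full windows of the table, 250 bases before to 50 after the start, the octamer was in 6 of 11 clustered genes and 1 of 8 variants with an entry, against 1.97% of 27025 genes. CCAAT was in 8 of 11 clustered genes and 5 of 8 variants, against 41.1% of all genes. TATAAA was in 7 of 11 clustered genes and 1 of 8 variants, against 15.7% of all genes.

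The libraries differed in depth and in the sum of their values. Depth relative to the deepest library, read from the steps between low FPKM values, was 0.746 to 0.793 in sgHcar1 cells in lactate and 0.865 to 1 in the other 9 libraries. FPKM added up to 411996.2 to 421984.3 per library in sgHcar1 cells in lactate and to 310109 to 367976.7 in the others. Hcar1 itself was listed at 0 in 11 libraries and at 0.0196 FPKM in 1 sgHcar1 library in PBS, so it gives no check of the labels. The table's columns for the sgHcar1 population carry a letter that the labels do not explain, and they were read as sgHcar1 because the other population's letter stands for sgControl. Of the colon epithelium markers Epcam and Cdx2 were listed at 0 in all 12 libraries, and Krt18 averaged 112.5 and 46.2 FPKM in sgHcar1 cells in lactate and in PBS, against 0 and 0.0274 FPKM in sgControl cells. Members near the level rule were read with few fragments: Hist1h4j, just inside it, reached 1.67 FPKM at most with 4 libraries at 1 FPKM or more, and Hist1h4c, just outside, reached 1.46 FPKM with 2 such libraries. The 32 matching entries below the rule included 9 that were listed at 0 in every library.

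Most histone transcripts were lower in lactate in both populations. In sgHcar1 cells 13 of the 22 genes fell and 1, H2afy2, rose, and in sgControl cells 18 fell and none rose, by limma on log2(FPKM + 1) with an adjusted p under 0.05. On that scale the deepest falls were those of the variants H2afx and H1f0 in sgHcar1 cells and of the clustered genes Hist1h4i and Hist2h2be in sgControl cells. As a ratio of the lactate mean to the PBS mean, H2afx was again lowest in sgHcar1 cells at 0.122. However, H1fx, Hist1h2ab, Hist1h4i and Hist2h2be, at 0.125, 0.129, 0.202 and 0.228, stood below H1f0 at 0.255. Few fragments lay behind H1fx, Hist1h2ab and Hist1h4i. In RNA from whole cultures, fewer cells with a transcript and less of it per cell cannot be told apart. Among the 13736 genes tested, 72.2% were called in sgHcar1 cells, 35.4% as lower and 36.8% as higher. In sgControl cells 65.7% were called, 31.9% as lower and 33.9% as higher. Of the 22 genes, 6 reached 1 FPKM in sgControl libraries alone: H2afj, H2afy2, Hist1h4j, Hist1h3f, Hist1h2bj and Hist1h2ac. The other 16 had 13 falls in each population and no rise. That split is by population and does not deal with members that needed PBS libraries to pass. Hist1h4j and Hist1h2ab reached 1 FPKM in 1 lactate library each, and Hist1h4k, Hist1h3f and Hist1h2bj in 2. With fewer than 3 such lactate libraries, their passage favoured a fall with lactate. Hist1h4k and Hist1h2ab are among the 16. Lactate libraries lay wholly below PBS libraries for 14 histone genes in sgHcar1 cells, where 35.9% of all genes did so, and for 18 in sgControl cells, where 34.0% did. They lay wholly above for 1 and 0 histone genes, where 37.7% and 36.2% of all genes did. Their median log2 change was -0.57 in sgHcar1 cells and -0.64 in sgControl cells, where the medians over all genes were 0 and 0.001.

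By class, 7 of 9 variants and 6 of 13 clustered genes fell in sgHcar1 cells, with median log2 changes of -1.07 and -0.36. In sgControl cells 8 of 9 variants and 10 of 13 clustered genes fell, with medians of -0.52 and -0.65. Of the 13 clustered genes, 10 were lower in sgHcar1 cells than in sgControl cells in each treatment, Hist2h2ac, Hist3h2a and Hist1h2ab being the others. Over all genes 40.9% were lower in lactate and 38.4% in PBS. Among the 10, Hist1h4j, Hist1h3f, Hist1h2bj and Hist1h2ac reached 1 FPKM in sgControl libraries alone, and Hist1h2ba in 1 sgHcar1 library. Their way into the set favoured that direction. A change on the log2(FPKM + 1) scale is compressed at low levels, so these medians do not compare the classes in proportion. When every library was rescaled to the same sum, the median over all genes moved to -0.12 in sgHcar1 cells and 0.041 in sgControl cells. The called genes of the table then split into 3991 higher and 5985 lower in sgHcar1 cells, against 5050 higher and 4867 lower before rescaling, while the histone counts were 1 higher and 13 lower there and 0 higher and 16 lower in sgControl cells. Median-ratio scaling gave 5030 higher and 4883 lower called genes in sgHcar1 cells.

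**Figure D1:**
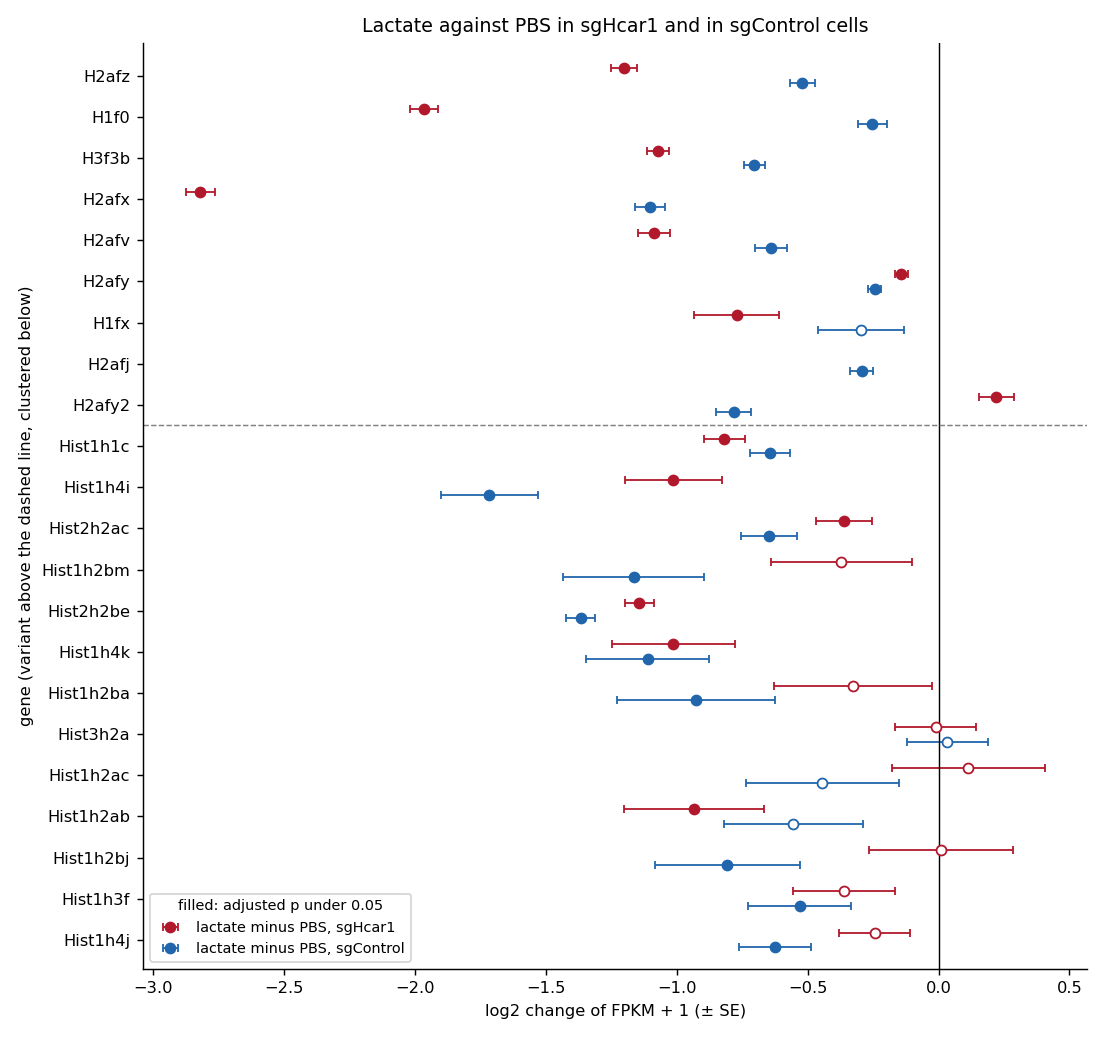
Log2 change of FPKM + 1 with lactate against PBS (horizontal axis, ± SE, 3 libraries per group) for the 22 histone genes (vertical axis), in sgHcar1 and sgControl cells. Filled points passed an adjusted p of 0.05, and H2afj, listed at 0 in sgHcar1 cells, has a point for sgControl cells alone. H2afx and H1f0 lie farthest left in sgHcar1 cells, at -2.82 and -1.96, and Hist1h4i in sgControl cells, at -1.72.

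H2afx encodes H2A.X, the H2A form that is phosphorylated around DNA double-strand breaks. It had 5.39, 5.23 and 5.24 FPKM in sgHcar1 cells in lactate, against 43.2, 42.3 and 44.7 FPKM in PBS. In sgControl cells it had 21.4, 23.4 and 21.6 FPKM in lactate, against 52.4, 44.3 and 49.4 FPKM in PBS. Lactate libraries lay below PBS libraries in both populations, with no overlap, and the sgHcar1 libraries in lactate were the lowest of all. The log2 change was -2.82 ± 0.056 in sgHcar1 cells (SE, adjusted p = 9.04e-12) and -1.10 ± 0.056 in sgControl cells (adjusted p = 1.82e-08). The lactate changes differed by -1.72 ± 0.079 on the log2 scale (adjusted p = 4.11e-08), and the level in lactate was 0.122 times that in PBS for sgHcar1 cells and 0.454 times for sgControl cells. The sgHcar1 values in lactate correspond to an estimated 96 to 104 fragments per library.

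H2afz and H2afv encode the closely related proteins H2A.Z.1 and H2A.Z.2, found in nucleosomes next to transcription starts. H2afz, the most abundant histone transcript per length over the 12 libraries, had 304, 309 and 332 FPKM in sgHcar1 cells in lactate, against 736, 740.2 and 703 FPKM in PBS. In sgControl cells its values were 277, 275 and 305 FPKM in lactate, against 409, 395 and 427 FPKM in PBS. The groups did not overlap within either population, and sgHcar1 cells in PBS were the highest. The log2 changes were -1.20 ± 0.049 (adjusted p = 1.78e-09) and -0.52 ± 0.049 (adjusted p = 3.11e-06), and their difference was -0.68 ± 0.069 (adjusted p = 1.05e-05). H2afv had 16.3, 14.5 and 13.4 FPKM in sgHcar1 cells in lactate, against 31.0, 32.4 and 33.5 FPKM in PBS. Its sgControl values were 26.5, 27.9 and 28.6 FPKM in lactate, against 42.7, 43.1 and 45.1 FPKM in PBS. It fell by the same test without overlap in both, by log2 changes of -1.09 ± 0.060 and -0.64 ± 0.060, with a difference of -0.45 ± 0.085 (adjusted p = 0.000977). H2afv stayed a small part of the H2A.Z transcripts: the ratio of H2afv to H2afz was 0.0469 ± 0.00662 and 0.0445 ± 0.00287 in sgHcar1 cells in lactate and in PBS, against 0.0969 ± 0.00403 and 0.106 ± 0.00238 in sgControl cells (SD, n = 3 each).

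H2afy and H2afy2 encode the macroH2A proteins, large H2A forms with an extra domain that are associated with silent chromatin. H2afy had 19.5, 19.6 and 20.4 FPKM in sgHcar1 cells in lactate, against 22.2, 21.9 and 21.8 FPKM in PBS. In sgControl cells H2afy had 15.5, 15.6 and 15.6 FPKM in lactate, against 18.7, 18.8 and 18.3 FPKM in PBS. These falls were small but without overlap, at -0.14 ± 0.026 (adjusted p = 0.000421) and -0.24 ± 0.026 (adjusted p = 7.52e-06). H2afy2 had 0.395, 0.326 and 0.278 FPKM in sgHcar1 cells in lactate, against 0.118, 0.120 and 0.194 FPKM in PBS, which is an estimated 8 to 12 against 4 to 7 fragments per library. The sgControl values were 5.98, 7.18 and 6.07 FPKM in lactate, against 11.9, 11.7 and 11.5 FPKM in PBS. H2afy2 was the gene that rose in sgHcar1 cells, at 0.22 ± 0.067 (adjusted p = 0.0114), while in sgControl cells it fell by a log2 change of -0.78 ± 0.067 (adjusted p = 1.36e-06). The difference was 1.004 ± 0.094 (adjusted p = 5.78e-06), with levels in sgHcar1 cells below 0.4 FPKM throughout. H2afy had a difference of 0.10 ± 0.036 (adjusted p = 0.0309), which turned to -0.12 (adjusted p = 0.0152) when libraries were rescaled to the same sum. Its call was also lost under quantile normalization (adjusted p = 0.0852), with no variance trend (adjusted p = 0.0527) and with the replicate block (adjusted p = 0.0519). The same held, at adjusted p of 0.0501 to 0.0698, without sgControl PBS replicate 1 or 2, sgControl lactate replicate 1 or 2, sgHcar1 PBS replicate 2 or 3, or sgHcar1 lactate replicate 3.

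H2afj encodes H2A.J, an H2A form that differs from the clustered H2A proteins mainly near its end. It was listed at 0 in all 6 sgHcar1 libraries. It had, in sgControl cells, 20.7, 22.9 and 21.2 FPKM in lactate, against 26.2, 27.3 and 26.5 FPKM in PBS, which is an estimated 622 to 698 against 788 to 861 fragments. The sgControl groups did not overlap, and the log2 change was -0.29 ± 0.043 (adjusted p = 0.000106). With no value above 0 in sgHcar1 cells, the tested difference of 0.29 between the lactate changes only restates the fall in sgControl cells.

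H3f3b encodes H3.3, which replaces H3 at active genes and outside DNA replication. It had 107, 111 and 103 FPKM in sgHcar1 cells in lactate, against 232, 232 and 213 FPKM in PBS. The sgControl libraries gave 189, 199 and 200.2 FPKM in lactate, against 316, 324 and 319 FPKM in PBS. No lactate library overlapped the PBS libraries of its population. The changes were -1.07 ± 0.041 (adjusted p = 1.13e-09) and -0.70 ± 0.041 (adjusted p = 6.25e-08), and they differed by -0.37 ± 0.058 (adjusted p = 0.00027). The sister gene H3f3a had no entry under that symbol, so the H3.3 supply is seen through H3f3b alone. Cenpa, the H3 form of centromeres, lies outside the name pattern and is given for comparison. Cenpa had 8.18, 7.71 and 7.36 FPKM in sgHcar1 cells in lactate, against 34.3, 36.0 and 34.3 FPKM in PBS. Values in sgControl cells were 12.3, 11.5 and 12.1 FPKM in lactate, against 32.3, 31.6 and 32.8 FPKM in PBS, again without overlap. Cenpa fell in both, by log2 changes of -2.04 ± 0.040 (adjusted p = 8.54e-12) and -1.36 ± 0.040 (adjusted p = 2.76e-10), with a difference of -0.68 ± 0.056 (adjusted p = 2.41e-06).

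Among linker histones, H1f0 encodes H1.0, a form that builds up in cells that leave the cell cycle. It had 90.4, 99.4 and 86.1 FPKM in sgHcar1 cells in lactate, against 359.6, 369 and 355 FPKM in PBS. sgControl cells had 419, 466 and 456 FPKM in lactate, against 515, 545 and 537 FPKM in PBS. The lactate mean was 0.255 of the PBS mean in sgHcar1 cells and 0.840 of it in sgControl cells, with no overlap in either. The log2 changes were -1.96 ± 0.054 (adjusted p = 7.91e-11) and -0.25 ± 0.054 (adjusted p = 0.00165), and their difference was -1.71 ± 0.077 (adjusted p = 3.3e-08). Under quantile normalization the fall in sgControl cells was -0.072 and was no longer called (adjusted p = 0.257). H1fx encodes H1.X, another linker form outside the clusters. It had 0.177, 0.0583 and 0.124 FPKM in sgHcar1 cells in lactate, against 0.370, 1.12 and 1.39 FPKM in PBS, or an estimated 1 to 3 against 7 to 28 fragments. Its sgControl values were 24.4, 26.8 and 22.6 FPKM in lactate, against 31.7, 29.1 and 30.3 FPKM in PBS. H1fx fell in sgHcar1 cells, at -0.77 ± 0.16 (adjusted p = 0.00127), and its change of -0.30 ± 0.16 in sgControl cells was not called (adjusted p = 0.135). In a fit of the sgControl groups alone the same change was called (adjusted p = 0.011), as it was without sgHcar1 PBS replicate 1 (adjusted p = 0.00456).

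**Figure D2:**
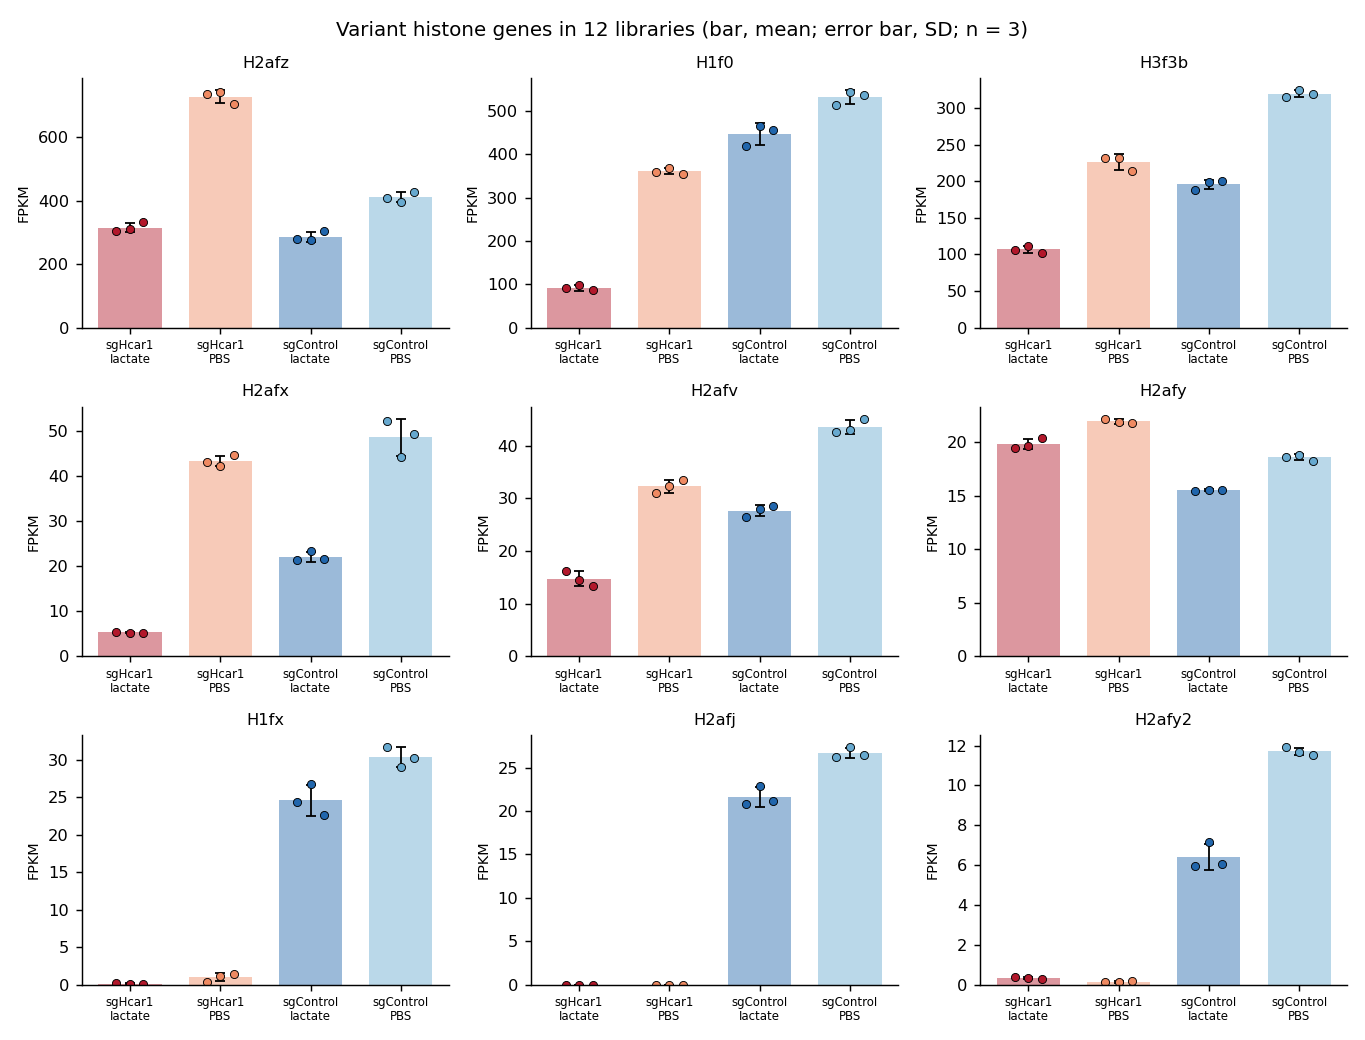
FPKM (vertical axes, from 0) of the 9 variant histone genes in each of the 12 libraries, by group (horizontal axes). Points are libraries, bars are means and error bars are SD of 3 libraries. H2afx and H1f0 are lowest in sgHcar1 cells in lactate, at 5.29 and 92.0 FPKM on average, and H2afj is listed at 0 in all sgHcar1 libraries.

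Hist1h1c, the one linker histone gene of the clusters past the filter, encodes H1.2 and was the most abundant clustered transcript per length. It had 2.07, 2.23 and 1.89 FPKM in sgHcar1 cells in lactate, against 4.54, 4.13 and 4.53 FPKM in PBS. In sgControl cells it had 21.2, 26.6 and 22.9 FPKM in lactate, against 39.0, 34.9 and 37.9 FPKM in PBS. The groups did not overlap, and even the lactate libraries of sgControl cells exceeded every sgHcar1 library. It fell in both populations, at -0.82 ± 0.078 (adjusted p = 2.23e-06) and -0.64 ± 0.078 (adjusted p = 2.31e-05). The difference of -0.17 ± 0.11 did not pass the test (adjusted p = 0.195).

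Of the H4 genes, Hist1h4i had 0.296, 0.293 and 0.519 FPKM in sgHcar1 cells in lactate, against 1.06, 2.60 and 1.83 FPKM in PBS. It had, in sgControl cells, 5.65, 6.36 and 4.80 FPKM in lactate, against 24.6, 17.8 and 19.8 FPKM in PBS. Both lactate groups were below their PBS groups without overlap, at -1.01 ± 0.19 (adjusted p = 0.00045) and -1.72 ± 0.19 (adjusted p = 9.5e-06). In proportion the lactate level was 0.202 of the PBS level in sgHcar1 cells and 0.270 of it in sgControl cells. The sgHcar1 libraries in lactate held an estimated 3 to 5 fragments of Hist1h4i. The tested difference was 0.70 ± 0.26 (adjusted p = 0.039) and turned to -0.12 with a pseudocount of 0.1 (adjusted p = 0.821), so its direction depends on the scale. Its call was also lost after rescaling (0.17, adjusted p = 0.697), without a filter on low values (adjusted p = 0.0776), with the replicate block (adjusted p = 0.0603) and, at adjusted p of 0.0508 to 0.0917, without sgControl PBS replicate 1 or 3, sgControl lactate replicate 1 or 3, sgHcar1 PBS replicate 1 or 3, or any 1 of the sgHcar1 lactate replicates. Hist1h4k had 0.230, 0.683 and 0.726 FPKM in sgHcar1 cells in lactate, against 2.47, 2.09 and 1.74 FPKM in PBS. The sgControl values were 0.914, 2.89 and 2.40 FPKM in lactate, against 6.09, 5.29 and 4.69 FPKM in PBS. Hist1h4k fell in both without overlap, at -1.01 ± 0.24 (adjusted p = 0.00237) and -1.11 ± 0.24 (adjusted p = 0.00155). The coding sequences of the 3 H4 genes past the filter are 93.3% to 98.4% identical, with shared runs of up to 206 bases, so how fragments were divided among them is uncertain.

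Of the H2B genes, Hist1h2bm had 0.941, 1.30 and 0.198 FPKM in sgHcar1 cells in lactate, against 1.01, 1.54 and 1.27 FPKM in PBS. The sgControl libraries gave 5.09, 2.52 and 5.88 FPKM in lactate, against 12.4, 9.67 and 10.6 FPKM in PBS. The sgHcar1 groups overlapped and were not called (adjusted p = 0.241), while sgControl cells showed a log2 change of -1.17 ± 0.27 (adjusted p = 0.00271). Hist2h2be, studied in mouse olfactory neurons as an H2B variant, had 0.547, 0.569 and 0.548 FPKM in sgHcar1 cells in lactate, against 2.28, 2.56 and 2.47 FPKM in PBS. Values in sgControl cells were 1.74, 1.63 and 1.97 FPKM in lactate, against 6.20, 6.21 and 6.08 FPKM in PBS. The 3 libraries of each group were close together and no groups overlapped, and the changes were -1.14 ± 0.055 (adjusted p = 7.56e-09) and -1.37 ± 0.055 (adjusted p = 3.23e-09). Their difference of 0.22 ± 0.078 (adjusted p = 0.0298) turned to -0.21 with a pseudocount of 0.1 (adjusted p = 0.145) and to -0.12 after rescaling (adjusted p = 0.302). The difference was not called either without a filter on low values (adjusted p = 0.0678) or, at adjusted p of 0.0519 to 0.0725, without sgControl PBS replicate 1 or 2, sgControl lactate replicate 1 or 2, sgHcar1 PBS replicate 1 or sgHcar1 lactate replicate 2. Hist1h2ba, known as a testis H2B gene, had 0.373, 0.370 and 0 FPKM in sgHcar1 cells in lactate, against 0.838, 1.02 and 0 FPKM in PBS. In sgControl cells Hist1h2ba had 1.34, 2.19 and 3.89 FPKM in lactate, against 5.25, 4.47 and 6.31 FPKM in PBS. It was called in sgControl cells, at -0.93 ± 0.30 (adjusted p = 0.0189), but not without sgControl PBS replicate 3 (adjusted p = 0.0647) or sgControl lactate replicate 1 (adjusted p = 0.0805). That call also ended with a pseudocount of 0.1 (adjusted p = 0.268) and after rescaling (adjusted p = 0.0792), and the overlapping sgHcar1 groups were not called (adjusted p = 0.36).

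Of the clustered H2A genes, Hist2h2ac had 4.41, 3.69 and 3.92 FPKM in sgHcar1 cells in lactate, against 5.07, 5.01 and 6.27 FPKM in PBS. sgControl cells had 3.18, 2.31 and 3.35 FPKM in lactate, against 5.32, 5.01 and 5.09 FPKM in PBS. Lactate libraries were lower without overlap in both, at -0.36 ± 0.11 (adjusted p = 0.00996) and -0.65 ± 0.11 (adjusted p = 0.000269). Hist3h2a had 1.30, 2.58 and 1.48 FPKM in sgHcar1 cells in lactate, against 1.83, 2.03 and 1.44 FPKM in PBS. Its sgControl values were 1.01, 1.04 and 0.667 FPKM in lactate, against 0.886, 0.918 and 0.761 FPKM in PBS. The lactate and PBS libraries of Hist3h2a overlapped in both populations, and neither change was called (adjusted p = 0.976 and 0.878).

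The other 5 clustered genes averaged 0.693 to 1.15 FPKM over the 12 libraries. Hist1h2ab was called lower in sgHcar1 cells, at 0.160 ± 0.277 FPKM in lactate, against 1.24 ± 0.625 FPKM in PBS (SD, n = 3 each), with libraries of 0 to 3 against 4 to 13 estimated fragments. Hist1h4j, Hist1h3f and Hist1h2bj were called lower in sgControl cells, at log2 changes of -0.63, -0.53 and -0.81. The Hist1h3f and Hist1h2bj calls each ended without 3 of the single libraries of sgControl cells: PBS replicate 2 or 3 for both, with lactate replicate 2 for Hist1h3f and lactate replicate 1 for Hist1h2bj (adjusted p of 0.0545 to 0.124). Both also ended with a pseudocount of 0.1 (adjusted p = 0.0839 for Hist1h3f and 0.0862 for Hist1h2bj), without a filter on low values (0.0662 and 0.0507) and in a fit of the sgControl groups alone (0.0999 and 0.108), and that of Hist1h3f after rescaling (adjusted p = 0.0536). Hist1h2ac was called in neither. The coding sequences of Hist1h2ab and Hist1h2ac are 97.5% identical and those of Hist1h2bj and Hist1h2bm 97.4%, so their shares of the fragments are uncertain.

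**Figure D3:**
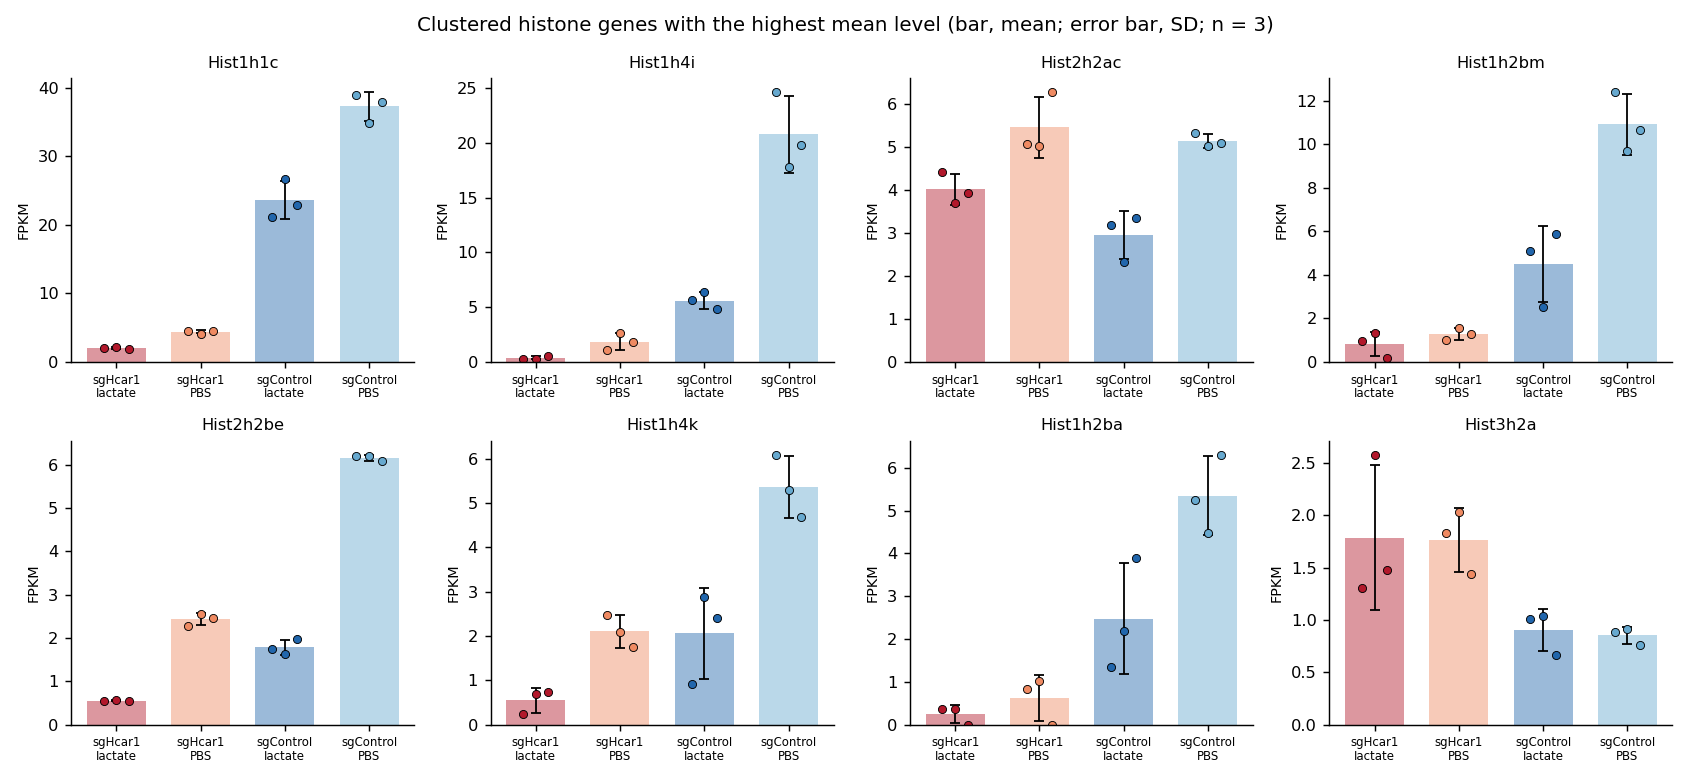
FPKM (vertical axes, from 0) of the 8 clustered histone genes with the highest mean level in each of the 12 libraries, by group (horizontal axes). Points are libraries, bars are means and error bars are SD of 3 libraries. The sgControl libraries in PBS are the highest for Hist1h1c, Hist1h4i, Hist1h2bm, Hist2h2be, Hist1h4k and Hist1h2ba, and Hist3h2a is higher in sgHcar1 cells.

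The lactate change was tested against itself between the populations. It differed for 10 of the 22 histone genes, more negative in sgHcar1 cells for 5 and less negative or positive for 5, where 59.1% of all genes differed, 28.7% and 30.4% in these directions. The histone share was below that of all genes. On the log2(FPKM + 1) scale the 5 genes with the deeper fall in sgHcar1 cells were variants: H2afx, H1f0, H2afz, H2afv and H3f3b, with differences of -1.72, -1.71, -0.68, -0.45 and -0.37. Of the other 5, H2afy2, H2afj and H2afy are variants and Hist1h4i and Hist2h2be are clustered genes. The count of 5 in that direction was 3 to 4 when any 1 library was left out, 3 with a pseudocount of 0.1 and 2 after rescaling, and the 5 deeper falls were 5 to 6 without any 1 library, 6 without a filter on low values, 7 with a pseudocount of 0.1 and 8 after rescaling. In proportion, with no test, the ratio of the lactate mean to the PBS mean was set side by side for sgHcar1 and sgControl cells. It was lower in sgHcar1 cells for 9 of 13 clustered genes and for 6 of the 8 variants with a ratio in both. The share over all genes is not given, so these counts have no baseline. Hist1h4k was at 0.260 and 0.385, Hist2h2be at 0.228 and 0.289, and Hist1h4j nearly equal at 0.432 and 0.435. In sgHcar1 libraries in lactate, Hist1h4k had an estimated 1 to 3 fragments, Hist1h2ba 0 to 2 and Hist1h3f 1 to 5. Rescaling moved the median difference over all genes to -0.20 and turned 4170 higher and 3947 lower calls into 2475 and 5754. Under median-ratio scaling they were 4245 and 3874.

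Summed over genes, the clustered transcripts added up to 11.3, 12.5 and 10.6 FPKM in sgHcar1 cells in lactate, against 22.2, 23.5 and 21.8 FPKM in PBS. In sgControl cells the clustered sums were 44.0, 50.5 and 51.1 FPKM in lactate, against 107.7, 94.2 and 102.6 FPKM in PBS. All 4 groups were apart, with a lactate sum of 0.510 of the PBS sum in sgHcar1 cells and 0.478 in sgControl cells. The variant sums were 543, 560 and 560 FPKM in sgHcar1 cells in lactate, against 1425, 1439 and 1373 FPKM in PBS. In sgControl cells they were 999, 1064 and 1076 FPKM in lactate, against 1422, 1439 and 1464 FPKM in PBS. For variants the lactate sum was 0.392 of the PBS sum in sgHcar1 cells and 0.726 in sgControl cells, and the PBS groups of both populations overlapped. That overlap holds for values as deposited. With libraries rescaled to the same sum, the PBS variant sums were apart, at 3857 ± 65.1 in sgHcar1 and 4461 ± 51.9 in sgControl cells (SD). Clustered genes made up 2.03% ± 0.167 and 1.57% ± 0.0363 of the histone sum in sgHcar1 cells in lactate and in PBS, against 4.43% ± 0.180 and 6.58% ± 0.447 in sgControl cells (SD, n = 3 each). The share was thus higher in lactate than in PBS in sgHcar1 cells and lower in lactate than in PBS in sgControl cells, with no overlap in either. No p-value is attached to sums over chosen genes, and for clustered genes they depend on how far RNA without a poly(A) tail was captured. Members that passed through sgControl libraries alone favoured lower sums in sgHcar1 cells.

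The families within the clustered sums differed in level. The H4 genes summed to 1.07 ± 0.393 and 4.28 ± 0.638 FPKM in sgHcar1 cells in lactate and in PBS, against 8.35 ± 1.24 and 27.7 ± 3.91 FPKM in sgControl cells (SD, n = 3 each). The clustered H2A genes summed to 6.41 ± 0.182 and 8.82 ± 0.282 FPKM in sgHcar1 cells in lactate and in PBS, against 6.09 ± 0.567 and 9.91 ± 0.737 FPKM in sgControl cells. The H2B sums were 1.67 ± 0.683 and 4.38 ± 0.791 FPKM in sgHcar1 cells, against 9.75 ± 2.75 and 25.1 ± 2.35 FPKM in sgControl cells, again in lactate and in PBS. Between populations in lactate the ratio of sgHcar1 to sgControl sums was 0.128 for H4, 0.172 for H2B and 1.05 for H2A. Hist1h4j in the H4 sum and Hist1h2bj in the H2B sum reached 1 FPKM in sgControl libraries alone, and Hist1h2ba in 1 sgHcar1 library. Their way into the set favoured low ratios. The H2A sum held members favoured either way, Hist1h2ac and Hist3h2a. Single genes weighed heavily. Hist1h4i averaged 5.60 of the 8.35 FPKM of H4 in sgControl cells in lactate. Hist2h2ac averaged 4.01 of the 6.41 FPKM of H2A in sgHcar1 cells in lactate.

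**Figure D4:**
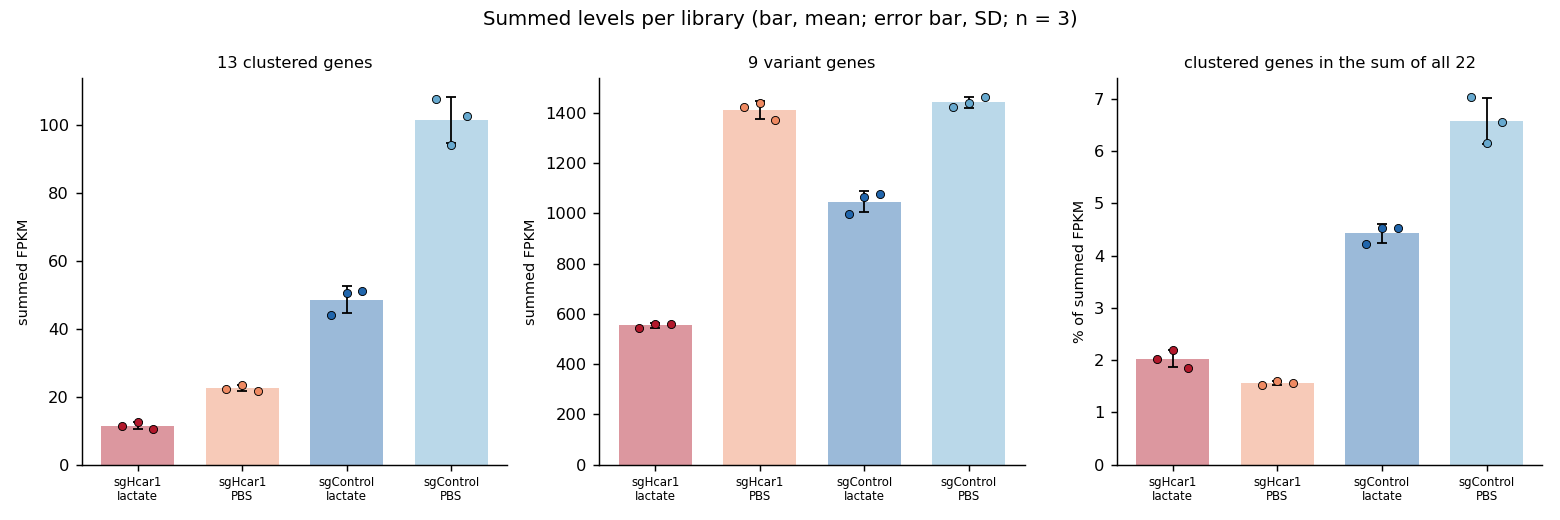
Summed FPKM (vertical axes, from 0) of the 13 clustered and the 9 variant histone genes, and the clustered share of the whole histone sum in percent, per library and group (horizontal axes). Points are libraries, bars are means and error bars are SD of 3 libraries. Clustered sums average 11.5, 22.5, 48.5 and 101.5 FPKM from left to right, and variant sums 554, 1412, 1047 and 1442 FPKM.

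Between the populations the histone genes called lower in sgHcar1 cells outnumbered those called higher, in part through the level rule. In lactate 17 of 22 were lower and 4 higher, where 82.2% of all genes were called, 40.9% as lower and 41.3% as higher. In PBS 17 were lower and 3 higher, where 76.7% of all genes were called, 38.4% as lower and 38.2% as higher. The 6 genes that reached 1 FPKM in sgControl libraries alone were lower in both treatments, as their way into the set favoured. The other 16 had 11 lower and 4 higher in lactate, and 11 lower and 3 higher in PBS. These 16 are not free of the level rule. H1fx and Hist1h2ab reached 1 FPKM in 2 sgHcar1 libraries and Hist1h2ba in 1, too few to pass without sgControl libraries. Hist3h2a reached it in 2 sgControl libraries, too few to pass without sgHcar1 libraries. Their passage favoured the lower calls of H1fx and Hist1h2ba and the higher calls of Hist3h2a. The sgHcar1 libraries lay wholly below the sgControl libraries for 16 histone genes in lactate (41.0% of all genes) and for 16 in PBS (39.6%), and wholly above for 3 in lactate (41.3%) and 3 in PBS (39.6%). Clustered genes were 10 lower and 2 higher in lactate, and 10 lower and 1 higher in PBS, out of 13. Variants were 7 lower and 2 higher in each treatment, out of 9. These comparisons share their libraries with the lactate comparisons and are not independent of them.

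H2afj, H1fx, H2afy2, Hist1h1c, Hist1h4i and Hist1h2bm stood far below their sgControl levels in both treatments. H2afj and H2afy2 had entered through sgControl libraries alone, so their direction was partly set by the level rule. H2afj was listed at 0 in sgHcar1 cells, so no fold is given. H1fx, with 1 to 3 estimated fragments in sgHcar1 libraries in lactate, had log2 changes of -4.51 ± 0.16 (adjusted p = 3.59e-10) and -4.04 ± 0.16 (adjusted p = 1.21e-09). H2afy2 was 0.0520 of its sgControl level in lactate and 0.0123 of it in PBS, with log2 changes of -2.47 ± 0.067 (adjusted p = 3.21e-11) and -3.48 ± 0.067 (adjusted p = 2.41e-12). In macroH2A transcripts H2afy2 was thus near absent beside H2afy, at a ratio of 0.0169 ± 0.00334 and 0.00657 ± 0.00203 in sgHcar1 cells in lactate and in PBS, against 0.412 ± 0.0422 and 0.630 ± 0.00925 in sgControl cells (SD, n = 3 each). Hist1h1c was lower, at -3.001 ± 0.078 (adjusted p = 2.25e-11) in lactate and -2.83 ± 0.078 (adjusted p = 4.58e-11) in PBS. Hist1h4i was lower, at -2.27 ± 0.19 in lactate (adjusted p = 4.24e-07) and -2.97 ± 0.19 in PBS (adjusted p = 5.12e-08), and Hist1h2bm at -1.59 ± 0.27 (adjusted p = 0.000197) and -2.39 ± 0.27 (adjusted p = 8.54e-06). None of the sgHcar1 libraries of H1fx, H2afy2, Hist1h1c, Hist1h4i or Hist1h2bm overlapped the sgControl libraries of the same treatment.

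H1f0 and H2afx showed another pattern, with a gap between populations that was wide in lactate and narrow in PBS. H1f0 was lower, at -2.27 ± 0.054 in lactate (adjusted p = 1.22e-11) and -0.56 ± 0.054 in PBS (adjusted p = 2.35e-06). H2afx was lower, at -1.88 ± 0.056 in lactate (adjusted p = 6.99e-11) and -0.16 ± 0.056 in PBS (adjusted p = 0.0222), and in PBS its libraries overlapped. That PBS call ended, at adjusted p of 0.0537 to 0.0963, without sgControl PBS replicate 1 or 3 or sgHcar1 PBS replicate 1 or 2, and in a fit of the PBS groups alone (adjusted p = 0.0529). H3f3b was lower, at -0.87 and -0.50, and H2afv at -0.87 and -0.42, in lactate and in PBS.

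Few genes were higher in sgHcar1 cells. H2afz was higher by 0.82 ± 0.049 in PBS (adjusted p = 3.42e-08), without overlap, and by 0.14 ± 0.049 in lactate (adjusted p = 0.0201), where its groups overlapped and the direction turned to -0.27 after rescaling and to -0.49 under quantile normalization. The lactate call also ended without sgControl lactate replicate 1 (adjusted p = 0.0715) or 2 (adjusted p = 0.0759) or sgHcar1 lactate replicate 3 (adjusted p = 0.0843). H2afy was higher by 0.33 ± 0.026 in lactate (adjusted p = 2.57e-07), which turned to -0.060 after rescaling, and by 0.23 ± 0.026 in PBS (adjusted p = 8.01e-06), where the rescaled value of 0.059 was not called (adjusted p = 0.0553). Hist3h2a was higher by 0.53 ± 0.16 in lactate (adjusted p = 0.00839) and 0.57 ± 0.16 in PBS (adjusted p = 0.00585), and Hist2h2ac by 0.35 ± 0.11 in lactate (adjusted p = 0.0103). The lactate calls of Hist3h2a and Hist2h2ac were lost after rescaling, at 0.41 (adjusted p = 0.0871) and 0.040 (adjusted p = 0.778). The lactate call of Hist1h2ac as lower ended without sgControl lactate replicate 2 or 3 or sgHcar1 lactate replicate 2 or 3, at adjusted p of 0.0514 to 0.122. It also ended with a pseudocount of 0.1 (adjusted p = 0.069), without a filter on low values (0.0561) and under quantile normalization (0.0651). That of Hist1h3f ended under quantile normalization (adjusted p = 0.218), without a filter on low values (0.076), with the replicate block (0.057), in a fit of the lactate groups alone (0.0922) and without sgControl PBS replicate 2, sgControl lactate replicate 1 or 3, sgHcar1 lactate replicate 1 or 3, or any 1 of the sgHcar1 PBS replicates, at adjusted p of 0.0517 to 0.155. Rescaling moved the median over all genes to -0.37 in lactate and -0.16 in PBS, and the histone counts to 20 lower and 0 higher and to 17 lower and 2 higher. All genes then split into 3580 higher and 7710 lower in lactate, against 5678 and 5614 before, and into 4032 higher and 6426 lower in PBS, against 5249 and 5280 before. Median-ratio scaling gave 5703 higher and 5591 lower in lactate, and 5228 higher and 5304 lower in PBS.

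**Figure D5:**
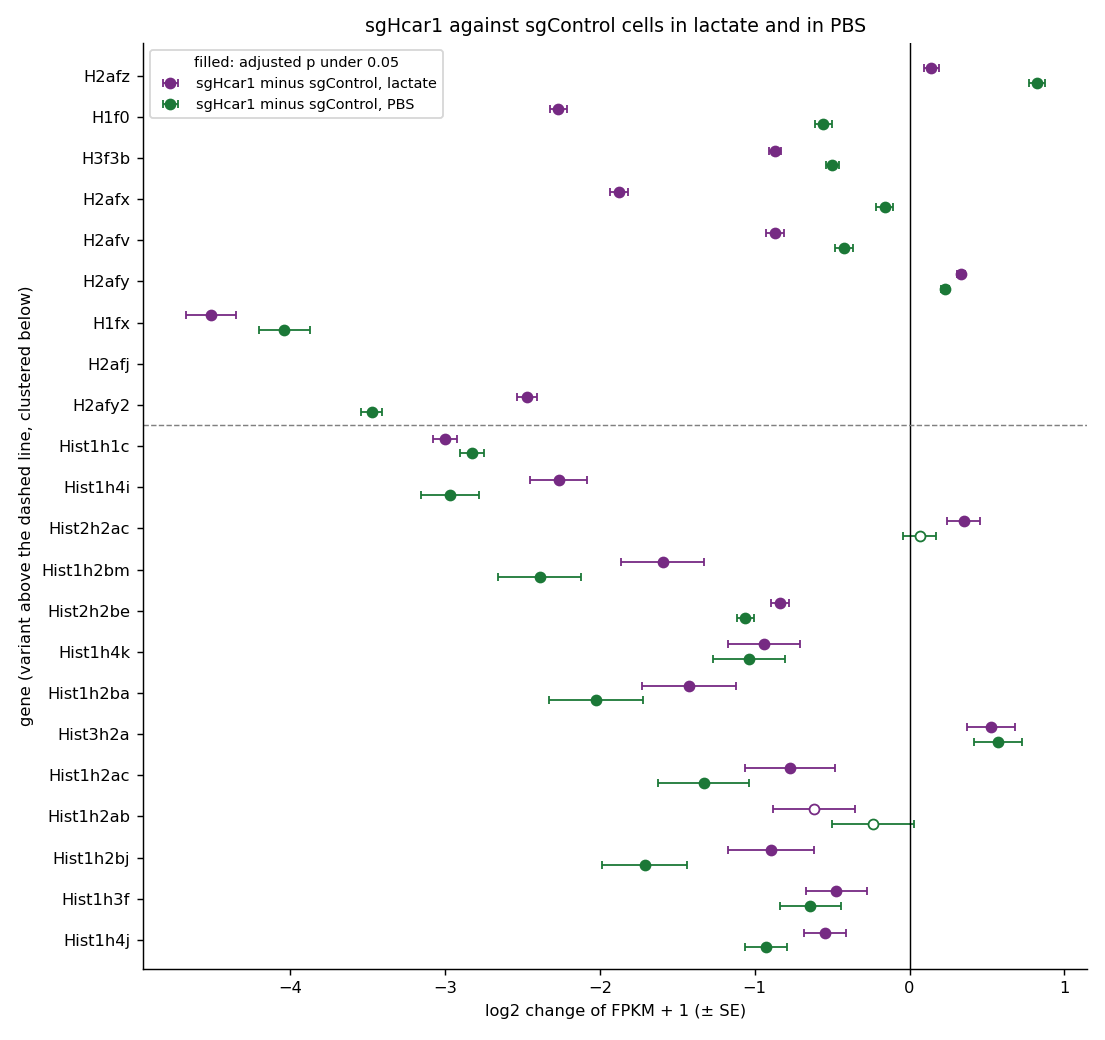
Log2 difference of FPKM + 1 between sgHcar1 and sgControl cells (horizontal axis, ± SE, 3 libraries per group) for the histone genes (vertical axis), in lactate and in PBS. Filled points passed an adjusted p of 0.05, and H2afj is left out because it is listed at 0 in sgHcar1 cells. H1fx lies farthest left, at -4.51 in lactate and -4.04 in PBS, and the points of H2afz and H2afy in lactate, at 0.14 and 0.33, change sign when libraries are rescaled to the same sum.

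The make-up of the H2A transcripts is given as shares of the summed FPKM of the 4 clustered and 6 variant H2A genes past the filter, with no test. H2afz supplied 87.1% ± 0.792 and 87.2% ± 0.565 of that sum in sgHcar1 cells in lactate and in PBS, against 74.2% ± 1.32 and 72.0% ± 0.622 in sgControl cells (SD, n = 3 each). H2afx supplied 1.46% ± 0.0709 and 5.21% ± 0.257 in sgHcar1 cells in lactate and in PBS, against 5.75% ± 0.426 and 8.55% ± 0.582 in sgControl cells. H2afj made up 5.61% ± 0.413 and 4.69% ± 0.241 of it in sgControl cells in lactate and in PBS. These shares rest on values as deposited and do not change when a library is rescaled. They depend on how far clustered H2A mRNA without a poly(A) tail was captured, so they may not be the shares in the cell.

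The populations also differed in genes that mark cell types, and these did not all run one way. Summed over the 8 colon epithelium markers with an entry, FPKM was 111 to 115 and 46.1 to 49.2 in sgHcar1 cells in lactate and in PBS, nearly all of it Krt18, against 5.91 to 6.22 and 2.84 to 2.96 in sgControl cells. Cdh1 ran opposite to Krt18, at 0 in all sgHcar1 libraries, against means of 4.53 and 1.72 FPKM in sgControl cells in lactate and in PBS. Of those 8 markers, 4 and 3 were listed at 0 in all 3 sgHcar1 libraries in lactate and in PBS, against 3 and 2 in sgControl cells. The 9 fibroblast markers summed to 81.5 to 86.4 and 185 to 195 FPKM in sgHcar1 cells in lactate and in PBS, against 238 to 252 and 274 to 284 FPKM in sgControl cells, with 2 at 0 in every group. Within that list Col1a1 and Col1a2 averaged 23.1 and 114.6 FPKM in sgHcar1 cells in PBS, against 1.01 and 45.5 FPKM in sgControl cells in PBS, while Col3a1 and Fbln2 averaged 1.55 and 44.7 FPKM, against 67.2 and 136.0 FPKM. The 7 leukocyte markers with an entry summed to 3.87 to 5.10 and 7.05 to 8.03 FPKM in sgHcar1 cells, against 13.7 to 14.1 and 11.4 to 12.6 FPKM in sgControl cells, mostly Cd14, while Cd3e, Itgam and Adgre1 were at 0 in all libraries. The 6 endothelial markers summed to 0.803 to 1.02 and 1.85 to 1.93 FPKM in sgHcar1 cells, against 0.680 to 0.933 and 1.05 to 1.38 FPKM in sgControl cells. Whether this had a part in the histone differences was not tested.

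S phase genes fell with the histones in lactate. Of 30 tested genes of DNA replication and its nucleotide supply, 28 were lower in sgHcar1 cells and 30 in sgControl cells, and none was higher, where 35.4% and 31.9% of all genes were lower, with median log2 changes of -0.85 and -0.73, against 0 and 0.001 over all genes. Ccna2, the cyclin of S phase, had 6.93 ± 0.491 FPKM in sgHcar1 cells in lactate, against 62.8 ± 0.258 FPKM in PBS, and 29.6 ± 0.652 against 102 ± 1.10 FPKM in sgControl cells (SD, n = 3 each). Its changes were -3.01 and -1.75, with a difference of -1.26 ± 0.055 (adjusted p = 2.84e-08). Ccne1, the cyclin of S phase entry, fell by log2 changes of -2.07 and -1.83, and the ribonucleotide reductase gene Rrm2 of -1.88 and -1.44. Tk1, thymidine kinase, had changes of -2.05 and -1.37, and Ccne2 of -1.76 and -1.49. The difference between the lactate changes was called for 13 of the 30, lower for 9, with E2f2 at -1.25 and Tk1 at -0.69, and higher for 4. Lower and higher calls took 28.7% and 30.4% of all genes in that test. Between populations 22 of the 30 were lower and 5 higher in sgHcar1 cells in lactate, and 24 lower and 5 higher in PBS, where 40.9% and 38.4% of all genes were lower. Examples were Mcm5, a helicase subunit, lower at -1.02 and -1.46, and Ccne1, higher by 1.29 and 1.53. The part of S phase in the histone changes was not tested.

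Genes that make and destroy clustered histone mRNA were mixed. Of 18 tested, 8 fell and 6 rose with lactate in sgHcar1 cells, and 10 fell and 3 rose in sgControl cells. Over all genes 35.4% fell and 36.8% rose in sgHcar1 cells, and 31.9% fell and 33.9% rose in sgControl cells, so the shares in sgHcar1 cells were near those of all genes. Slbp, which binds the stem-loop shown above, had 7.92 ± 0.245 FPKM in sgHcar1 cells in lactate, against 13.7 ± 0.654 FPKM in PBS, and 8.66 ± 0.341 against 15.5 ± 0.292 FPKM in sgControl cells (SD, n = 3 each). It fell in both, at -0.72 ± 0.041 (adjusted p = 3.17e-08) and -0.77 ± 0.041 (adjusted p = 3.01e-08), and the difference was not called (adjusted p = 0.46). Casp8ap2, the FLASH protein of histone pre-mRNA processing, fell, with a log2 change of -0.76 in sgHcar1 cells. The cap-binding gene Ncbp2 and the cleavage factor gene Cstf2 fell, with log2 changes of -0.61 and -0.47 in sgControl cells. Zcchc6 and Zcchc11 encode uridyl transferases that mark mRNA ends for decay. Zcchc6 rose by 0.999 in sgHcar1 cells, and Zcchc11 rose by 0.50 in sgControl cells. Mblac1, a nuclease gene tied to histone pre-mRNA processing in human cells, fell in sgHcar1 cells, to 0.625 ± 0.367 FPKM in lactate, against 4.01 ± 0.449 FPKM in PBS, and the difference between its lactate changes was -1.46 ± 0.25 (adjusted p = 0.000436). In that comparison 6 of the 18 were higher and 5 lower, among them Lsm10, a U7 snRNP protein, at -0.90, Zcchc6 at 0.61 and Ncbp1 at 0.51, where 30.4% and 28.7% of all genes were called in these directions. Against sgControl cells 10 were lower and 7 higher in lactate, where 40.9% and 41.3% of all genes were, and 11 lower and 4 higher in PBS, where 38.4% and 38.2% were. Mif4gd, an SLBP partner in translation, was lower, at -1.32 and -0.98, and Zcchc11 at -1.001 and -0.98. In lactate Lsm10 was lower, at -1.05, and Srrt, which joins the cap-binding complex, was higher by 0.89. In PBS Eri1, an exonuclease of histone mRNA, was lower, at -0.94, and Mblac1 was higher by 0.96.

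Histone chaperones and exchange factors were mixed as well, with more falls than rises in lactate. Of 30 tested, 14 fell and 10 rose with lactate in sgHcar1 cells, and 19 fell and 9 rose in sgControl cells. In sgHcar1 cells the falls stood above the 35.4% of all genes, and the rises were near 36.8%. In sgControl cells the falls stood well above 31.9%, and the rises were near 33.9%. The median log2 changes of the list were -0.059 and -0.43. Asf1b, a chaperone of H3 and H4, had 15.5 ± 0.388 FPKM in sgHcar1 cells in lactate, against 47.7 ± 0.160 FPKM in PBS, and 22.9 ± 1.11 against 56.2 ± 0.862 FPKM in sgControl cells (SD, n = 3 each), with changes of -1.56 and -1.26. Oip5, which helps prepare centromeres for CENP-A, fell, with a log2 change of -1.33 in sgHcar1 cells, where Cenpa itself fell. Anp32e, which removes H2A.Z, fell, with a log2 change of -1.17 in sgHcar1 cells and -1.11 in sgControl cells. Ino80, a remodeller that also acts on H2A.Z, rose by 1.06 in sgControl cells, with 21.3 ± 0.647 FPKM in lactate, against 9.72 ± 0.604 FPKM in PBS. Nasp, a chaperone of H3 and linker histones, fell, with a log2 change of -0.15 in sgHcar1 cells and -1.15 in sgControl cells, with a difference of 1.002 ± 0.063 (adjusted p = 3.26e-07). That difference was called for 19 of the 30, higher for 12, with Ssrp1 at 0.67 and Npm1 at 0.61, and lower for 7, against 30.4% and 28.7% of all genes. Between populations 15 were lower and 13 higher in sgHcar1 cells in lactate, near the 40.9% and 41.3% of all genes, and 17 lower and 10 higher in PBS, where 38.4% and 38.2% were called. Oip5 was lower, at -1.60 and -1.11, and the CAF-1 subunit gene Chaf1b at -1.30 and -1.17. Npm3 and Nap1l1 were higher by 1.24 and 0.95 in lactate, and in PBS Znhit1 was higher by 0.87 and Ubn1 lower, at -0.79.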

How the data were processed

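The authors deposited 1 table of FPKM per gene and library, the unit named in the file headers, with HISAT2 2.0.5, featureCounts 1.5.0-p3 and build GRCm38 per the submitters' processing notes. Total RNA was extracted with Trizol per the labels' protocols. Columns were matched to groups by their letters, with the sgHcar1 letters read by elimination. The files give no counts, so depth in reads is unknown. Relative depth and fragments per gene were estimated from steps between low FPKM values (whole within 0.05), and estimated fragments could share a common factor with the true number.

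Tests ran on log2(FPKM + 1) for the 13736 genes that reached 1 FPKM in 3 or more libraries. They used limma 3.58.1 (R 4.3.3) with 1 mean per group over all 12 libraries, an intensity trend, two-sided tests and Benjamini-Hochberg adjustment within each of 5 contrasts (threshold 0.05). Changes are log2 differences ± SE, and adding 1 shrinks the changes of weakly expressed genes. The fit was tested on simulated data. The members and gene lists were chosen with earlier results of these data known. Values in every library are given for all variants past the filter, the 8 clustered genes with the highest mean, and Cenpa. Up to 5 rises and 5 falls per contrast and up to 4 genes per list were named by size. Stem-loops came from GENCODE transcripts of GRCm38 and promoters from RefSeq, matched by symbol. The deposited gene identifiers begin with MGP_C57BL6NJ, so the gene models behind the FPKM may differ from those sequences. Alternatives were a pseudocount of 0.1, no filter, a mean of at least 5 FPKM, rescaling to a sum of 1000000, median-ratio scaling, quantile normalization, no trend, a replicate block, fits of the compared groups alone, and each library left out in turn. Summaries used Python 3.11.15, pandas 2.3.3, numpy 2.4.6 and matplotlib 3.10.9.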

Additional observations from a re-analysis of the deposited data

Results flagged for a closer look

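The lactate change differed between sgHcar1 and sgControl cells for 10 histone genes, by the limma test of the difference itself, where 59.1% of all genes differed. The value is the log2 change in sgHcar1 cells minus that in sgControl cells. It was -1.72 for H2afx, -1.71 for H1f0, -0.68 for H2afz, -0.45 for H2afv and -0.37 for H3f3b, each from a deeper fall in sgHcar1 cells. It was 1.004 for H2afy2, which rose in sgHcar1 cells and fell in sgControl cells, and 0.29 for H2afj, which was listed at 0 in sgHcar1 cells. For the other 3 it was 0.10 for H2afy, 0.70 for Hist1h4i and 0.22 for Hist2h2be, and their sign depended on the scale or the pseudocount.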

How the results depend on the processing

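Of the 84 histone gene changes examined, 68 kept their call and sign under each alternative that gave them a value. The 84 were the changes called in the main fit and the uncalled lactate change of H1fx in sgControl cells. Other uncalled changes were not examined for gaining a call. A mean of at least 5 FPKM gave a value for 47 of the 84 and fits of the compared groups alone for 74. The sign turned for H2afy after rescaling to a sum of 1000000, to -0.12 for the difference between lactate changes and to -0.060 for sgHcar1 against sgControl in lactate, and for H2afz in that last comparison, to -0.27 after rescaling and -0.49 under quantile normalization. It turned for the differences of Hist1h4i (-0.12, pseudocount of 0.1) and Hist2h2be (-0.21, pseudocount of 0.1, and -0.12, rescaled), and for Cenpa in PBS (-0.066, rescaled). The cause was not tested beyond the scaling itself.

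Without a filter 45 matching genes were tested and the rise count with lactate in sgHcar1 cells was 2. At a mean of at least 5 FPKM 10 were tested and it was 0, since H2afy2 left the test. The 9 falls with lactate in sgControl cells at that mean, and the 8 lower genes in sgHcar1 against sgControl cells in lactate and the 8 in PBS, with 2 higher in lactate, likewise came from fewer genes tested. The 5 differences higher in sgHcar1 cells became 3 with a pseudocount of 0.1, 3 without a filter, 3 at a mean of at least 5 FPKM, 3 with the replicate block and 2 after rescaling, and the 5 lower became 8 after rescaling. Rescaling left 0 genes higher in sgHcar1 than sgControl cells in lactate.

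After rescaling, clustered sums were 27.5, 61.4, 155.0 and 314 and variant sums 1330.0, 3857, 3342 and 4461, in the order sgHcar1 lactate, sgHcar1 PBS, sgControl lactate and sgControl PBS. The clustered lactate sum was then a smaller part of the PBS sum in sgHcar1 than in sgControl cells, the reverse of the deposited values. The variant sums in PBS no longer overlapped between populations. Without a filter the clustered sums were 13.3, 26.2, 52.6 and 108.5 FPKM in that order.

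Leaving out 1 library at a time gave 3 to 4 differences higher in sgHcar1 cells and 5 to 6 lower, 13 to 14 falls with lactate in sgHcar1 cells and 15 to 19 in sgControl cells. Against sgControl cells it gave 3 to 4 higher and 15 to 17 lower in lactate, and 3 higher and 16 to 17 lower in PBS. Sums then ranged over 10.9 to 11.9, 21.98 to 22.81, 47.2 to 50.8 and 98.4 to 105.1 FPKM for clustered and 551 to 560, 1399 to 1432, 1032 to 1070.0 and 1431 to 1452 FPKM for variant genes.

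Libraries with the same number shared only the number: correlations of their deviations were -0.051 to 0.085, 0 of 18 over 0.1, and in 6 of 18 settings of a library against another group its own number correlated best. With the replicate block the counts in the other comparisons were 1 higher and 13 lower, 0 and 18, 4 and 16, and 3 and 17. Few fragments limit the clustered genes in sgHcar1 cells.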
